A study of Mus musculus with 5 samples.

Results

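This account follows the homeobox, T-box, Sox and Fox genes and their relatives in forelimb muscle tissue of mouse embryos at embryonic stage E15.5. Members were taken by symbol, as every listed gene whose symbol begins like a Hox, T-box, Dlx, Lhx, Pitx, Meis, Pbx, sine oculis homeobox, Eya, Pax, Irx, Shox, Prrx, Alx, Emx, En, Phox2, Isl, Nkx, Barx, Meox, Lmx, Sox, Fox, Twist, Tcf15, Tcf21 or Zic gene. The pattern matched 82 symbols, and leaving out Sox10, Hoxa13, Hoxd13, Hoxc6, Hoxc8 and Hoxc9 gave 76 members of 4743 listed genes. Of these, 71 are genes of the families sought, and 5 share only the letters of the name (Hoxa11os, Sox2ot, Tbxa2r, Islr2 and Pbxip1). RefSeq holds 211 protein-coding mouse genes that meet the same rule, and 74 of them were listed, with Hoxa11os and Sox2ot making up the 76. Those not listed, which include every Meis, Nkx, Shox, Lmx and Emx gene and Pax3 and Pax7, were not analysed here.

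RNA sequencing was done on 3 Noggin-deficient and 2 wild type libraries, all of strain C57BL/6. The Noggin allele and the number of embryos per library were not given in the sources used here, so p-values measure only the spread between these libraries, which may be technical. Deposited values are non-negative decimals in a normalized unit that the files and labels do not name, so levels are compared between libraries for 1 gene and never between genes. Fold changes are log2 differences, Noggin-deficient minus wild type, of the value plus a pseudocount of 0.25, which understates the change of low genes. A gene was tested with limma if it reached 0.5 in at least 2 libraries, and was called at a Benjamini-Hochberg adjusted p under 0.05 over all 3913 genes tested.

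Homeodomain, T-box, SOX (HMG box) and forkhead proteins bind DNA and switch on or off the genes of a cell lineage. In the limb, Hox, Tbx, Meis, Shox2, Prrx and Lmx1b genes mark position and connective tissue, Pax, Eya, Meox1 and Lbx1 act in muscle precursors, SOX5, SOX6 and SOX9 in cartilage, and PHOX2 and ISL1 proteins in neurons that enter with the nerves. Noggin binds BMPs, secreted ligands that pattern the limb and favour bone and cartilage formation, and holds them away from their receptors.

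The tables hold genes that already differed between these same libraries, under criteria not given in the sources used here, and this sets how the counts below can be read. Of the 3913 genes tested, 98.0% were called. They were higher in the Noggin-deficient libraries for 37.9% and lower for 60.1%. Of the 61 members tested, 37 were called higher, 22 lower and 2 neither, so the share called (96.7%) was near that of all listed genes. The median log2 change was 0.41 over these members and -0.28 over all genes tested. Among all 76 members, the 3 Noggin-deficient libraries lay above both wild type libraries for 48 and below both for 27, and only Hoxb7 had groups that overlapped. Over all listed genes the groups did not overlap for 98.2%, with the Noggin-deficient libraries above for 41.2% and below for 57.1%. A further 15 members stayed under the filter, and 10 of the 61 passed it only through their Noggin-deficient values, so they had to differ. These 10 are Dlx2, Foxf2, Hoxa11os, Hoxc12, Hoxc13, Hoxd12, Irx6, Lhx8, Pax9 and Phox2a, and their calls are no support for a difference. Counts over the tested members are therefore descriptions. Rescaling the libraries by median-of-ratios factors moved the median of all genes by 0.25, upper-quartile scaling moved it by 0.19 and removal of a trend on transcript length by 0.28. Of the members' calls 62.7% were higher on the deposited values, against 80.4% under median-of-ratios scaling, and the direction turned, without a call, for 2 members under that scaling, Foxj3 among them, and for Foxj3 and Foxk1 once the length trend was removed.

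**Figure D1:**
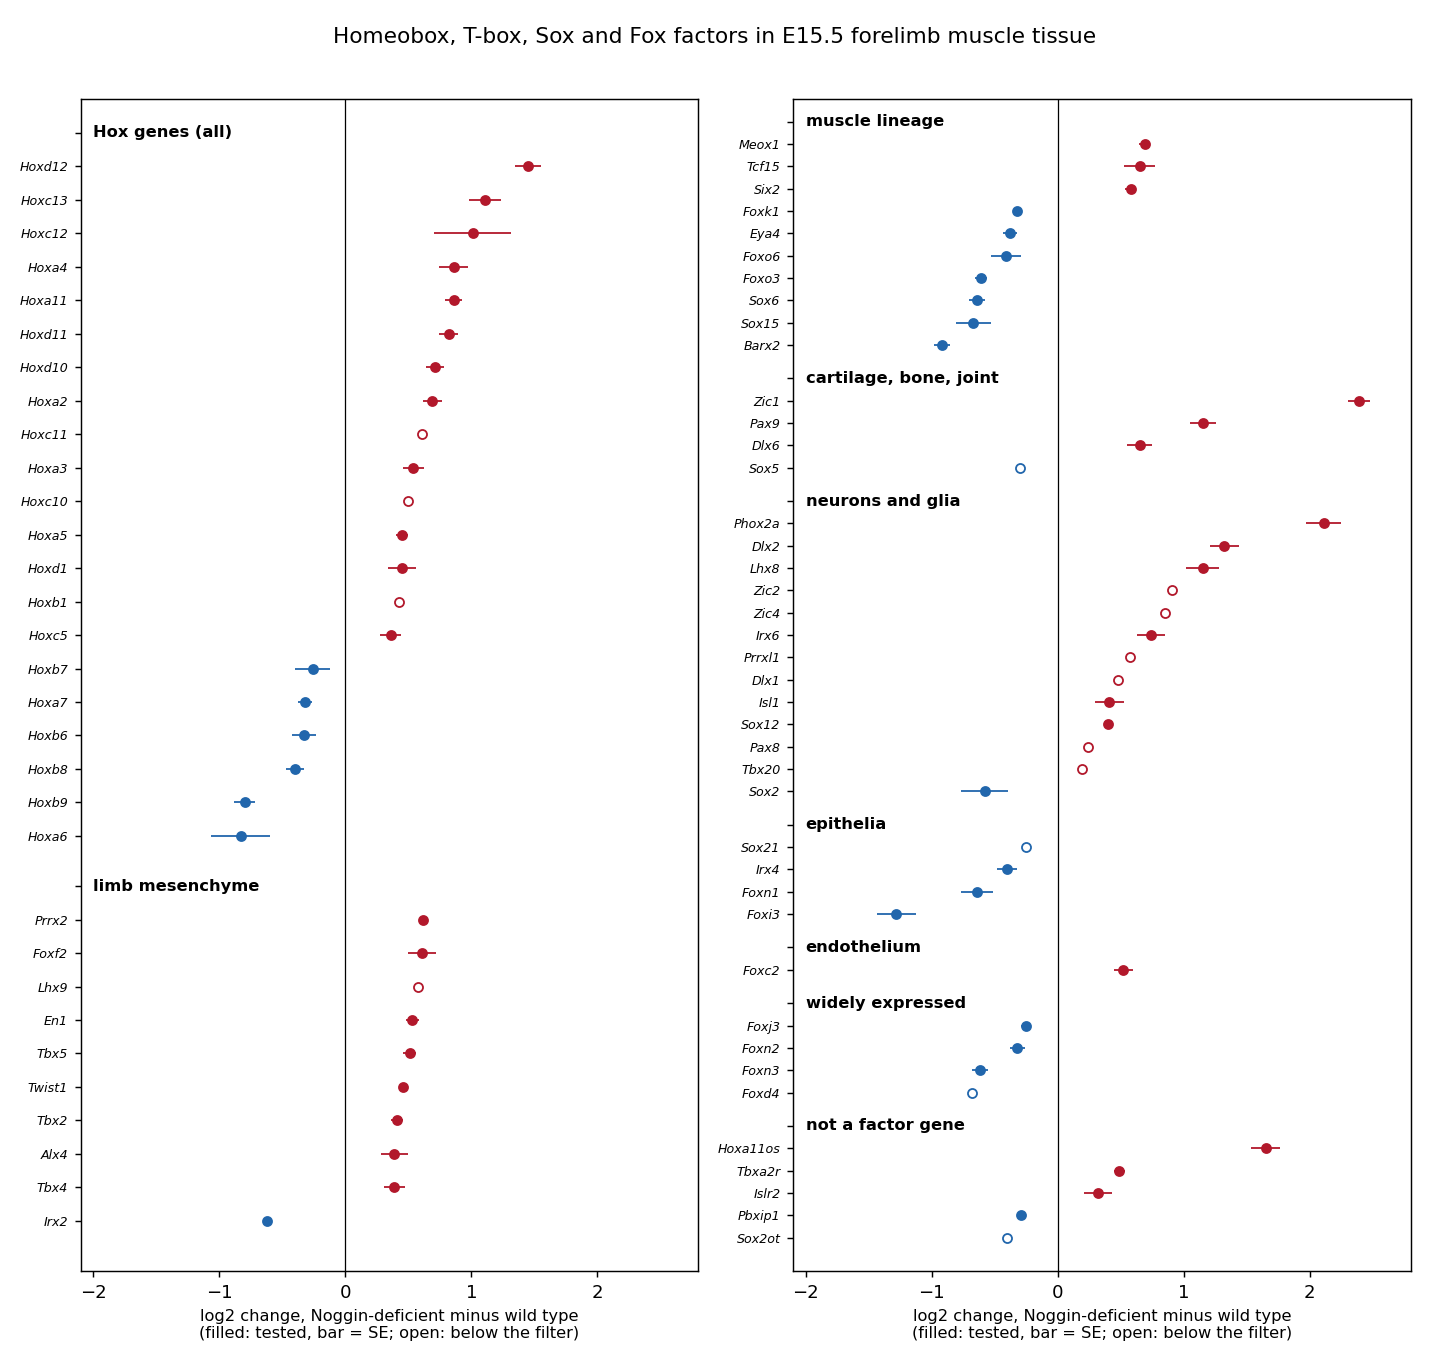
Log2 change (Noggin-deficient minus wild type) of members, with Hox genes together and the others by 1 tissue of known use each. That tissue need not be the main one, and several members act in others too. Filled points were tested and bars are SE, and open points are members under the filter, fitted without it. Most Hox, limb mesenchyme and neural genes lie right of 0 and most muscle lineage genes left of it, with Zic1 at 2.39 and Foxi3 at -1.28; Hoxc12 and Hoxc13, in no tissue list, stand with the Hox genes.

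Nog itself was lower in the libraries labelled as Noggin-deficient, with values of 0.49, 0.42 and 0.42, against 2 and 1.99 in wild type. It passed the filter only through its wild type values, so its fall is given as a description. Markers of other tissues moved with genotype. Of 16 tested skeletal muscle markers 14 were called lower and 2 higher, and the listed ones summed to between 4788 and 5024 in the Noggin-deficient and between 6903 and 7031 in the wild type libraries, so muscle transcripts were present in every library. All 25 tested epidermis markers were called lower. All 13 tested liver markers, 5 erythroid markers and 5 endothelium markers were called higher. Fgb and Serpina1a of the liver list were at 0 in both wild type libraries. Of the liver list only Afp, Trf and Rbp4 passed the filter through both groups. The other tested liver markers, and Epb4.2 of the erythroid list, passed only through Noggin-deficient values and so had to differ. The calls of these genes are no support for a difference. In tissue of mixed cells, fewer cells of a type and less RNA per cell cannot be told apart.

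Listed Hox genes were higher at both ends of the cluster numbering and lower in its middle. The genes of a Hox cluster are numbered along the chromosome in paralogue groups, with low numbers used towards the head and high numbers towards the tail and the end of the limb. Of 21 listed Hox genes, 18 were tested, with 12 called higher and 5 lower in Noggin-deficient tissue, the 12 including Hoxc12, Hoxc13 and Hoxd12, which passed the filter only through that group. The 15 genes of groups 1 to 5 and 10 to 13 all had their 3 Noggin-deficient values above both wild type values, with Hoxb1, Hoxc10 and Hoxc11 under the filter. The 6 genes of groups 6 to 9 had negative log2 changes, with 5 called lower. Over all listed genes the groups did not overlap for 98.2%, so lying apart is no trait of these ranges. Noggin-deficient values lay above for 41.2% and below for 57.1%. Of all genes tested 37.9% were called higher and 60.1% lower. This division into 3 ranges was made after the values were seen, and the Hox genes left out by the rule are not counted in it.

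High-numbered Hox genes pattern the forearm and hand, and among those that are members Hoxd12 had the largest log2 change, with Hoxa13 and Hoxd13 left out by the rule. Its values were 1.22, 1.47 and 1.25 in Noggin-deficient libraries, against 0.31 and 0.33 in wild type, a log2 change of 1.45, given as a description since both wild type values lay under the filter. Its neighbours Hoxd11 and Hoxd10 rose by 0.82 and 0.71. Hoxd11 stood at 1.87, 1.74 and 1.71 in Noggin-deficient against 0.91 and 0.88 in wild type libraries, and Hoxd10 at 3.73, 3.41 and 3.39 in Noggin-deficient against 2.15 and 1.94 in wild type libraries. The lowest Noggin-deficient value of each of these genes was more than 1.5 times the highest wild type value.

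The promoters of these 3 neighbours, which rose together, are shown from RefSeq (build GRCm38.p6), 250 bases before to 50 after the first listed start, 5′ to 3′ on the gene's strand. Capitals mark any of 4 motifs searched on both strands, and the motif shares follow with the Zic genes.
Hoxd12, chr2:74674763-74675062, plus strand: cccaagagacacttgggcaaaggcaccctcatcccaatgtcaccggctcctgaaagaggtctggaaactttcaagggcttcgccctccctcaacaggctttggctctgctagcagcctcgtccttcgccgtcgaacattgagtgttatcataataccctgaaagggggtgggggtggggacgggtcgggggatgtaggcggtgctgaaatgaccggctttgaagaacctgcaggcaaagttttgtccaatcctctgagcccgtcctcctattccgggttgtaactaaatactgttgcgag
Hoxd11, chr2:74679308-74679607, plus strand: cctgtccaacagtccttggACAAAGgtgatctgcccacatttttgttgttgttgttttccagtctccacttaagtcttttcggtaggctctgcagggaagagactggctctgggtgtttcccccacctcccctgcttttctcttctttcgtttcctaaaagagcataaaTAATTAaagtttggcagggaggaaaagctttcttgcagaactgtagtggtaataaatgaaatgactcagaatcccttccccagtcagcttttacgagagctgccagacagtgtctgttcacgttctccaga
Hoxd10, chr2:74691641-74691940, plus strand: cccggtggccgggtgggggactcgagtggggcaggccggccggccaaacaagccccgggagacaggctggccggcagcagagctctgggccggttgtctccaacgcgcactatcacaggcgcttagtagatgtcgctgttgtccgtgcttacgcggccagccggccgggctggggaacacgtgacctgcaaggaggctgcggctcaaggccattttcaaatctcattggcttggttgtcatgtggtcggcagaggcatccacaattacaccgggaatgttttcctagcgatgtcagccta
In these windows Hoxd11 holds 1 homeodomain core motif (TAATTA) and 1 Sox core motif (ACAAAG), and no motif of the 4 is in the letters shown for Hoxd12 or Hoxd10.

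Hoxa11, needed with Hoxd11 for the bones of the forearm, had values of 4.58, 4.25 and 4.41 in Noggin-deficient and 2.47 and 2.16 in wild type libraries, a log2 difference of 0.86 with SE 0.0696 (limma adjusted p = 1.8e-05). Hoxa11os, the RNA transcribed from the opposite strand of Hoxa11, had 0.8, 0.87 and 0.86 in Noggin-deficient and 0.13 and 0.07 in wild type libraries, a log2 change of 1.65. The values given for Hoxa11 and Hoxa11os were thus higher in the same libraries. That of Hoxa11os is a description, since only its Noggin-deficient values passed the filter. The library kit keeps strand, but its use in counting was not given in the sources used here, so reads of the pair may be mixed. Hoxc13, a gene of nail and hair, had 1.17, 1.06 and 0.86 in Noggin-deficient against 0.32 and 0.36 in wild type libraries, a log2 change of 1.11. Hoxc12 varied widely, with 0.53, 0.68 and 0.27 in Noggin-deficient and 0.23 and 0.02 in wild type libraries. Its log2 change of 1.01 (limma adjusted p = 0.013, with only Noggin-deficient values past the filter) was 0.59 (adjusted p = 0.11) without wild type replicate 2 and 0.69 (adjusted p = 0.06) once the length trend was removed. Hoxc11 (0.43, 0.23 and 0.14 in Noggin-deficient against 0.1 and 0.06 in wild type libraries) and Hoxc10 (0.28, 0.11 and 0.24 in Noggin-deficient against 0.08 and 0.06 in wild type libraries), best known from the hindlimb, stayed under the filter. Their Noggin-deficient values did not overlap the wild type ones, at levels under 0.5, and the same held for 98.2% of all listed genes.

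The low-numbered Hox genes, best known from the hindbrain, neck and shoulder region, were also higher. Hoxa2 had values of 4.09, 4.65 and 4.77 in Noggin-deficient libraries against 2.78 and 2.6 in wild type, a log2 change of 0.69. Hoxa3 had 4.65, 5.69 and 5.02 in Noggin-deficient against 3.38 and 3.46 in wild type libraries. Hoxa4 had 4.38, 4.55 and 4.67 in Noggin-deficient against 2.79 and 2.03 in wild type libraries, and its log2 difference of 0.86 with SE 0.113 (limma adjusted p = 0.0002) equalled that of Hoxa11. All 3 rose, with the wild type libraries closest together for Hoxa3 and farthest apart for Hoxa4. Hoxa5 averaged 10.4 ± 0.5 (SD, n = 3) in Noggin-deficient and 7.52 ± 0.240 (SD, n = 2) in wild type libraries, a log2 change of 0.45. Hoxc5 rose by 0.36 and Hoxd1 by 0.45, and Hoxb1 was under the filter (0.14 to 0.16 in Noggin-deficient and 0.03 to 0.07 in wild type libraries).

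The genes of groups 6 to 9 went the other way, within the Hoxa and Hoxb clusters. Hoxa6, the next gene after Hoxa5, had 1.23, 0.54 and 0.92 in Noggin-deficient and 1.61 and 1.84 in wild type libraries, a log2 difference of -0.83 with SE 0.235 (limma adjusted p = 0.0098). Its Noggin-deficient libraries spread more than 2-fold, and without wild type replicate 2 its adjusted p was 0.058. Hoxa7 had 4.27, 3.95 and 4.08 in Noggin-deficient against 5.11 and 5.24 in wild type libraries, a log2 change of -0.32. Hoxb9, a gene of the trunk and of the early forelimb bud, fell by 0.80, with 1.81, 2.12 and 1.77 in Noggin-deficient against 3.47 and 3.5 in wild type libraries (SE 0.0835, limma adjusted p = 6.3e-05). Hoxb8 fell by 0.40 and Hoxb6 by 0.33. Hoxb7 had 2.89, 2.23 and 2.15 in Noggin-deficient against 2.59 and 3.29 in wild type libraries, groups that overlapped, with a log2 change of -0.26 (limma adjusted p = 0.1). Under median-of-ratios scaling Hoxb9 stayed called at -0.55, while Hoxa6 (-0.60), Hoxa7 (-0.06), Hoxb6 (-0.09) and Hoxb8 (-0.16) no longer passed. With the length trend removed the median of the 6 genes was -0.47 and Hoxb7 was called at -0.50. In GENCODE M21 the annotated span of Hoxa3 overlaps Hoxa4, Hoxa5 and Hoxa6 on the same strand and that of Hoxc5 overlaps Hoxc10, so reads of these genes may have been split or dropped by the counting.

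**Figure D2:**
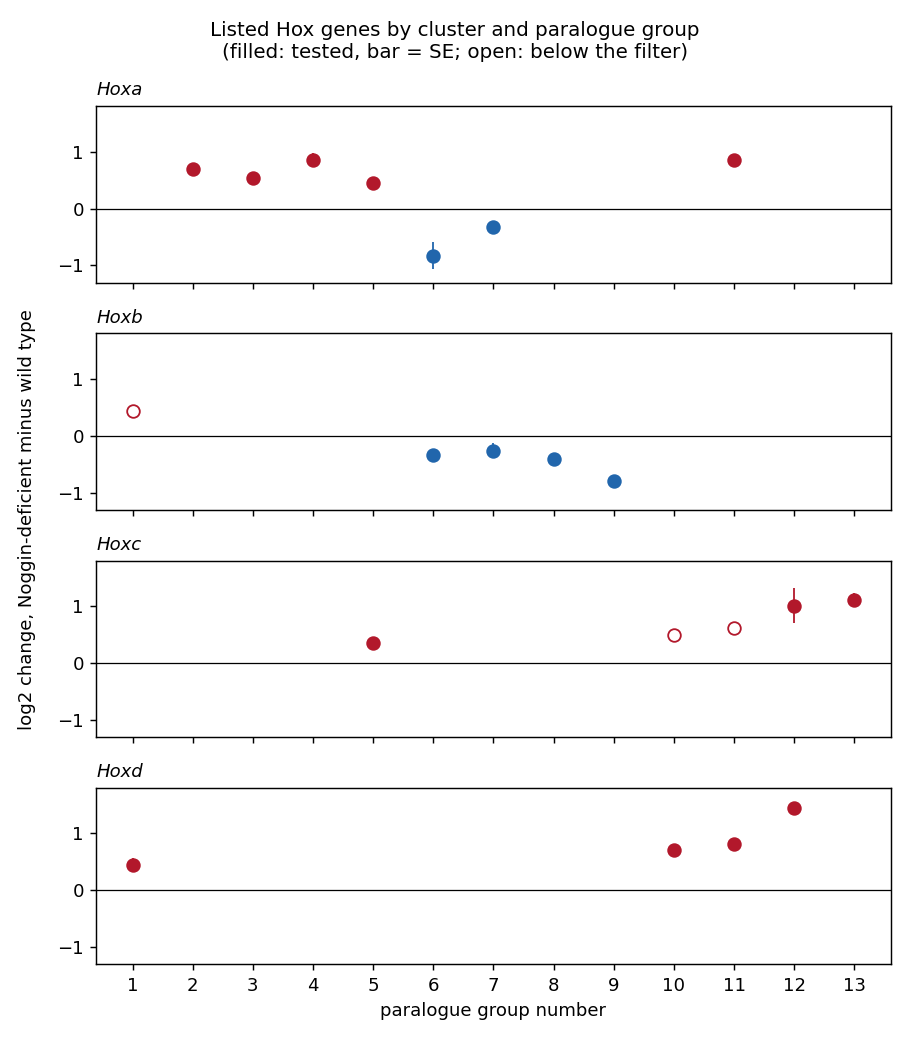
Log2 change (Noggin-deficient minus wild type) of the 21 listed Hox genes against paralogue group number, 1 panel per cluster; filled points were tested with bars for SE, and open points lie under the filter. Groups 1 to 5 and 10 to 13 lie above 0 in every cluster with a listed gene, and groups 6 to 9 of Hoxa and Hoxb lie below it; the median of groups 6 to 9 was -0.12 under median-of-ratios scaling.

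The next group holds genes of limb mesenchyme and of position in the limb, outside the Hox clusters, and includes En1 of the ectoderm and Irx2, also of epithelia. Of 11 tested, 9 were called higher and 1, Irx2, lower, with Foxf2 among the 9 passing the filter only through its Noggin-deficient values. Their median log2 change was 0.46, and between 0.49 and 0.73 under the 2 rescalings and once the length trend was removed. Over all genes tested 37.9% were called higher and 60.1% lower. The median over all was -0.28, and between -0.10 and -0.01 under the same treatments. The listed genes already differed between these libraries, so the count is a description. Twist1, a basic helix-loop-helix factor of mesenchyme, had values of 60.42, 60.72 and 62.14 in Noggin-deficient and 44.67 and 43.86 in wild type libraries, a log2 difference of 0.46 with SE 0.027 (limma adjusted p = 3.8e-06) that was 0.29 once the length trend was removed. Prrx2, a homeobox gene of limb connective tissue, had 17.48, 17.56 and 17.95 in Noggin-deficient against 11.33 and 11.4 in wild type libraries, a log2 difference of 0.62 with SE 0.0308 (limma adjusted p = 1.7e-06). For both genes the libraries of a group lay within a few percent of each other.

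Tbx5, which starts the forelimb bud, had values of 8.36, 9.09 and 9.02 in Noggin-deficient and 6.19 and 6.02 in wild type libraries, a log2 change of 0.51. Tbx4, its hindlimb counterpart, rose as well, with 1.24, 1.37 and 1.31 in Noggin-deficient against 0.94 and 0.93 in wild type libraries, a log2 change of 0.39. Tbx2, a repressor at the limb margins and a known BMP target, rose by 0.41, with 14.87, 15.25 and 15.29 in Noggin-deficient against 11.9 and 10.81 in wild type libraries. In all 3 T-box genes the groups lay apart, as for 98.2% of all listed genes. En1, which marks the ventral limb ectoderm, rose by 0.53 (5.52, 5.25 and 5.18 in Noggin-deficient against 3.68 and 3.52 in wild type libraries). Alx4, a homeobox gene of the anterior limb bud and the face, rose by 0.39, and its change was 0.75 once the length trend was removed. Foxf2, a forkhead gene of mesenchyme under epithelia, rose by 0.61 (0.61, 0.76 and 0.72 in Noggin-deficient against 0.35 and 0.39 in wild type libraries), and Lhx9, under the filter, had 0.48, 0.48 and 0.42 in Noggin-deficient against 0.22 and 0.23 in wild type libraries.

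Irx2 was the exception in this group. It had values of 18.16, 17.77 and 17.64 in Noggin-deficient and 28.26 and 26.73 in wild type libraries, a log2 difference of -0.62 with SE 0.0345 (limma adjusted p = 3.1e-06). Irx2 is an Iroquois homeobox gene of digits and of several epithelia. Its relative Irx4 fell by 0.40 and Irx6, of retina and other neurons, rose by 0.74, with 0.71, 0.81 and 0.89 in Noggin-deficient against 0.38 and 0.38 in wild type libraries.

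Most listed genes of the muscle lineage were lower, as were most of all genes tested. Of 11 tested, 8 were called lower and 3 higher, with a median log2 change of -0.38 that was -0.12 under median-of-ratios scaling and -0.19 once the length trend was removed. Over all genes tested 60.1% were called lower. Their median was -0.28, and -0.03 and -0.01 under the same 2 treatments. The count is therefore no trait particular to this group. The largest fall was that of Barx2, a homeobox gene of muscle precursors and of epithelia, at 8.45, 7.44 and 8.59 in Noggin-deficient and 15.51 and 15.71 in wild type libraries, a log2 difference of -0.92 with SE 0.0616 (limma adjusted p = 7.8e-06). Sox6, which represses slow-fibre genes in fetal muscle and also acts in cartilage, had 1.78, 1.83 and 1.9 in Noggin-deficient against 3.06 and 2.93 in wild type libraries, a log2 change of -0.64. Sox15, a gene of muscle precursors, had 0.86, 1.05 and 0.75 in Noggin-deficient against 1.37 and 1.74 in wild type libraries, a log2 change of -0.67. In each the Noggin-deficient libraries lay under wild type, with Sox15 the most variable.

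Foxo3, a forkhead factor that drives muscle atrophy genes in the adult, had 5.45, 5.98 and 5.71 in Noggin-deficient and 9.04 and 8.71 in wild type libraries, a log2 difference of -0.61 with SE 0.0499 (limma adjusted p = 1.9e-05). With the length trend removed Foxo3 stood at -0.26 and Sox6 at -0.25, both still called. Foxk1, which keeps muscle precursors dividing, had 9.86, 10.18 and 10.35 in Noggin-deficient against 12.8 and 12.57 in wild type libraries, a log2 change of -0.32 that was 0.05 (adjusted p = 0.27) once the length trend was removed. Eya4, a partner of sine oculis homeobox proteins, fell by 0.38 and Foxo6 by 0.41. The calls of Eya4, Foxo6 and Foxk1 were lost under median-of-ratios scaling. Foxo6 (adjusted p = 0.055) also lost its call without wild type replicate 1, and Eya4 (adjusted p = 0.18) once the length trend was removed.

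The 3 genes that rose are best known from the somite and from early precursors or connective tissue. Meox1, a homeobox gene of the somite, had 18.21, 18.33 and 17.45 in Noggin-deficient and 10.64 and 11.48 in wild type libraries, a log2 difference of 0.69 with SE 0.0428 (limma adjusted p = 5.2e-06). Six2, a homeobox gene of tendon and connective tissue as well as of muscle, had 8.53, 8.86 and 9.13 in Noggin-deficient against 5.7 and 5.94 in wild type libraries, a log2 change of 0.58. Tcf15 (paraxis), a basic helix-loop-helix gene of the somite that also marks endothelium of muscle and fat, had 6.79, 7.49 and 8.15 in Noggin-deficient against 5.41 and 4.03 in wild type libraries, a log2 change of 0.65 that was 0.31 once the length trend was removed. The groups lay well apart for Meox1 and Six2, and the wild type libraries of Tcf15 differed more between themselves. Endothelium markers were higher in the same libraries (sums of 160 to 165 in Noggin-deficient and 110 to 113 in wild type), and skeletal muscle markers lower. Their part in these changes was not tested.

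**Figure D3:**
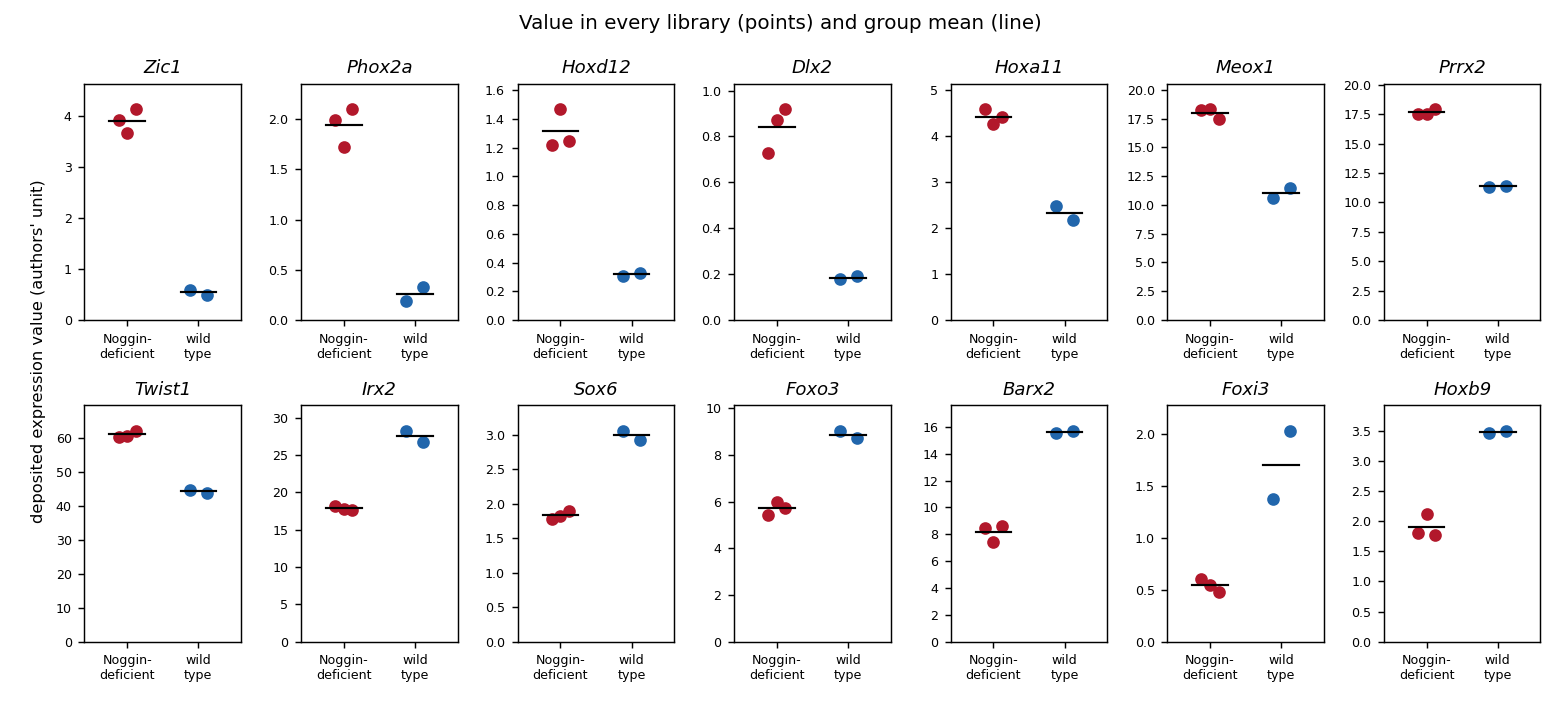
Deposited value (authors' unit, each axis from 0) of 14 members in each of the 3 Noggin-deficient and 2 wild type libraries, with lines for the group means. In every panel the groups are apart, as for 98.2% of all listed genes. Zic1 has values of 3.66 to 4.14 in Noggin-deficient against 0.5 and 0.59 in wild type libraries. Barx2 has values of 7.44 to 8.59 in Noggin-deficient against 15.51 and 15.71 in wild type libraries.

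Zic1 had the largest log2 change of all tested members. Zic genes encode zinc finger factors of the dorsal neural tube and the dorsal somite, and Zic1 also marks connective tissue and brown fat precursors. Zic1 values were 3.93, 3.66 and 4.14 in Noggin-deficient and 0.59 and 0.5 in wild type libraries, a log2 difference of 2.39 with SE 0.0851 (limma adjusted p = 4e-07). Zic4, which lies head to head with Zic1 on chromosome 9, had 0.27, 0.26 and 0.23 in Noggin-deficient against 0.03 and 0.03 in wild type libraries. Zic2 had 0.28, 0.47 and 0.32 in Noggin-deficient against 0.06 and 0.08 in wild type libraries. Zic4 and Zic2 stayed under the filter and did not overlap between groups, as for 98.2% of all listed genes.

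The promoters of the Zic1 and Zic4 pair are shown because both genes were higher in the same libraries and have starts on opposite strands (RefSeq, GRCm38.p6, same window, and capitals as above). In GENCODE M21 their annotated spans overlap on opposite strands, so without strand in the counting, reads of Zic1 may be among those of Zic4.
Zic1, chr9:91365719-91366018, minus strand: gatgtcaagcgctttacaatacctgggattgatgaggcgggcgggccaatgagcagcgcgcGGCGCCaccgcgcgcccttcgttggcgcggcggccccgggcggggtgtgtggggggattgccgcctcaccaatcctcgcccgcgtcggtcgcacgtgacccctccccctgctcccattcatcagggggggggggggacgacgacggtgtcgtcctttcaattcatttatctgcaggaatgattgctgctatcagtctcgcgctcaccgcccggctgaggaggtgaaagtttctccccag
Zic4, chr9:91368722-91369021, plus strand: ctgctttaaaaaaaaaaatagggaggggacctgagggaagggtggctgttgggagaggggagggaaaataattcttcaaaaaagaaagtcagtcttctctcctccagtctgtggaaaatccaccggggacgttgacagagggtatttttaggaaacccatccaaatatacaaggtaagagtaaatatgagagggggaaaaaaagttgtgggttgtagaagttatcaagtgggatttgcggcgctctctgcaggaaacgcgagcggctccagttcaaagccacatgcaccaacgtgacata
Zic1 holds 1 copy of GGCGCC, a GC-rich motif bound by BMP-activated SMAD1 and SMAD5, and the Zic4 window holds none of the 4 motifs. A promoter was found for 49 of the 76 members. GGCGCC, which is its own reverse complement, was in 18.4% of them, against 19.2% of the promoters of listed genes and 12% of all 27025 promoters, and in 7 of 31 members that were higher and 2 of 18 that were lower. TAATTA, also its own reverse complement, was in 4.08% of the members, 2.98% of listed genes and 5.31% of all promoters, with 1 member that was higher and 1 that was lower. ACAAAG (reverse complement CTTTGT) was in 20.4% of members, 15.8% of listed genes and 18.7% of all, with 5 members that were higher and 5 that were lower. The forkhead core TGTTTAC (reverse complement GTAAACA) was in 2.04%, 2.73% and 3.55%, with 1 member that was higher and 0 that were lower. A match says only that these letters stand in the window.

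Other members of cartilage and skeletal use were few. Pax9, which acts in the sclerotome and in limb mesenchyme, had 0.59, 0.63 and 0.59 in Noggin-deficient and 0.14 and 0.13 in wild type libraries, a log2 change of 1.15, again a description since only the Noggin-deficient values passed the filter. Dlx6, a distal-less homeobox gene of cartilage and of the limb ectoderm, had 1.72, 1.42 and 1.56 in Noggin-deficient against 0.96 and 0.86 in wild type libraries, a log2 change of 0.65. Sox5, a partner of SOX9 in cartilage, was under the filter and lower, with 0.16, 0.15 and 0.18 in Noggin-deficient against 0.25 and 0.27 in wild type libraries. Of 8 tested cartilage matrix genes with SOX5, SOX6 and SOX9 as known regulators, out of 18 on the list, 7 were called lower and 1, Epyc, higher. Their median log2 change was -0.38, and -0.08 once the length trend was removed, against -0.28 and -0.01 over all genes tested. Col11a1, a cartilage collagen, averaged 26.1 ± 0.514 (SD, n = 3) in Noggin-deficient and 34.7 ± 0.106 (SD, n = 2) in wild type libraries, and Col11a2 had a log2 change of -0.35, both without a call once the length trend was removed (adjusted p = 0.23 and 0.55). Of 6 tested osteoblast markers 5 were called higher and 1, Col1a1, lower.

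Genes grouped under neurons and their precursors come next, some of them also used in other tissues. Outside the Hox clusters, 14 such members were listed and 13 had all Noggin-deficient values above wild type, against 41.2% of all listed genes. Those not tested lay under the filter, with Tbx20 and Pax8 at no more than 0.07 in any library. Of the 7 tested, 6 were called higher and 1, Sox2, lower. But 4 of the 6 (Phox2a, Dlx2, Lhx8 and Irx6) passed the filter only through their Noggin-deficient values, so neither count is support. Phox2a is a paired homeobox gene that specifies noradrenergic and other autonomic neurons. Phox2a had 1.99, 1.72 and 2.1 in Noggin-deficient and 0.19 and 0.33 in wild type libraries, a log2 change of 2.11, given as a description since it passed the filter only through the Noggin-deficient values. Each Noggin-deficient value was over 5 times the highest wild type value.

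Known PHOX2-dependent and other sympathetic neuron genes moved in the same libraries. Of 16 tested, out of 22 on the list, 13 were called higher and 3 (Ddc, Ret and Gata3) lower, with a median log2 change of 1.5. Over all genes tested 37.9% were called higher. Th, Chga, Chgb, Slc6a2 and Elavl4 passed the filter only through Noggin-deficient values, and Ret only through wild type values. These had to differ, so the count and the median are descriptions and no support. Th, the rate-limiting enzyme of catecholamine synthesis, had values of 1.62, 1.6 and 1.31 in Noggin-deficient and 0.03 and 0.01 in wild type libraries. Dbh, which makes noradrenaline from dopamine, had 3.22, 3.55 and 3.57 in Noggin-deficient against 0.59 and 0.53 in wild type libraries. Th was thus close to 0 in wild type, while Dbh was above 0 in every library. Tubb3 and Prph, neuronal cytoskeleton genes, rose by 2.51 and 2.46. The 19 listed genes summed to between 88.0 and 90.8 in Noggin-deficient and between 56.8 and 57.1 in wild type libraries. Whether Phox2a changed within neurons or with the number of neurons in the tissue cannot be told apart. Of 8 Schwann cell markers 6 were called lower and 2 higher, with log2 changes of -1.92 for Mal and -0.54 for Erbb3. Over all genes tested 60.1% were called lower. Pmp22 (0.01), Mbp (-0.15) and Cdh19 (-0.27), all among the 6, lost their calls under median-of-ratios scaling. Cdh19, among the 6, passed the filter only through wild type values.

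Other members of neural use were higher in the Noggin-deficient libraries. Dlx2 had 0.73, 0.87 and 0.92 in Noggin-deficient and 0.18 and 0.19 in wild type libraries, a log2 change of 1.32 that is a description for the same reason, and its neighbour Dlx1 had 0.18 to 0.2 in Noggin-deficient against 0.06 and 0.07 in wild type libraries. Lhx8, a LIM homeobox gene of forebrain neurons and of the face, had 0.9, 0.95 and 1.22 in Noggin-deficient against 0.35 and 0.29 in wild type libraries, a log2 change of 1.15. Isl1, of motor, sensory and sympathetic neurons, rose by 0.41, with 0.71, 0.66 and 0.77 in Noggin-deficient against 0.54 and 0.41 in wild type libraries. Its call was lost without wild type replicate 2 (adjusted p = 0.083). Sox12, a SoxC gene found widely in embryos, had 23.18, 24.31 and 23.01 in Noggin-deficient against 18.1 and 17.39 in wild type libraries, a log2 difference of 0.40 with SE 0.0364 (limma adjusted p = 3.1e-05). Prrxl1, of sensory neurons, had 0.13 to 0.21 in Noggin-deficient against 0.01 and 0.04 in wild type libraries. Tbx20 and Pax8 did not exceed 0.07 in any library.

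Listed genes of epidermis and other epithelia were lower, as were most of all listed genes. Foxi3, a forkhead gene of hair placodes and other ectodermal buds, had the largest fall of the tested members, with 0.6, 0.55 and 0.48 in Noggin-deficient and 1.37 and 2.03 in wild type libraries, a log2 difference of -1.28 with SE 0.153 (limma adjusted p = 0.00013). Foxn1, the nude gene of hair, nail and thymus epithelium, had 0.81, 0.64 and 0.57 in Noggin-deficient against 1.23 and 1.13 in wild type libraries, a log2 change of -0.64. Irx4 had 3.34, 3.93 and 4.02 in Noggin-deficient against 5.11 and 4.98 in wild type libraries, a log2 change of -0.40 whose call was lost under median-of-ratios scaling (adjusted p = 0.15). Sox21, a gene of hair cuticle, was under the filter with 0.33, 0.3 and 0.28 in Noggin-deficient against 0.36 and 0.46 in wild type libraries. In all of them every Noggin-deficient value lay below both wild type values, as for 57.1% of all listed genes.

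Sox2, a gene of neural precursors, hair papilla and other epithelia, had 0.6, 0.51 and 0.39 in Noggin-deficient and 0.67 and 1.1 in wild type libraries. Its log2 change of -0.58 (limma adjusted p = 0.018) was -0.30 (adjusted p = 0.16) without wild type replicate 2, and was not called under either rescaling. Sox2ot, the long noncoding RNA in whose span Sox2 lies, had 0.13, 0.09 and 0.08 in Noggin-deficient against 0.21 and 0.21 in wild type libraries. The 2 share a strand, so their reads may have been mixed. The 26 listed epidermis markers summed to between 1368 and 1415 in Noggin-deficient and between 3277 and 3302 in wild type libraries, Hrnr and Lor of the outer epidermis falling by 3.95 and 2.89. Krt5, of basal keratinocytes, averaged 217 ± 6.7 (SD, n = 3) in Noggin-deficient and 332 ± 2.25 (SD, n = 2) in wild type libraries, and none of the list was at 0. The part of skin in the falls of Foxi3, Foxn1, Irx4, Barx2, Sox15, Sox2 and Sox21 was not tested.

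The remaining members were forkhead genes and the 5 genes that are no factors of these families. Foxc2, a forkhead gene of lymphatic vessels, cartilage and fat, had 1.82, 1.75 and 1.87 in Noggin-deficient and 1.22 and 1.15 in wild type libraries, a log2 change of 0.52. Foxn3, a widely expressed checkpoint factor, fell by 0.62, with 4.45, 4.27 and 4.03 in Noggin-deficient against 7.03 and 6.34 in wild type libraries, and by 0.25 once the length trend was removed. Foxn2 had 4.49, 3.99 and 4.17 in Noggin-deficient against 5.47 and 5.2 in wild type libraries, and Foxj3, which acts on Mef2c in muscle, had 7.21, 7.52 and 7.44 in Noggin-deficient against 9.03 and 8.63 in wild type libraries. These last 2 lost their calls under each rescaling and once the length trend was removed. Foxd4 was under the filter, with 0.04, 0.04 and 0.06 in Noggin-deficient against 0.23 and 0.22 in wild type libraries. Of the 10 tested Fox genes 8 were called lower and 2, Foxc2 and Foxf2, higher, with a median log2 change of -0.37 that was -0.12 under median-of-ratios scaling. Foxf2 passed the filter only through Noggin-deficient values. Over all genes tested 60.1% were called lower, and the median was -0.28, and -0.03 under that scaling. Of the 4 tested Sox genes only Sox12 was called higher.

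Tbxa2r, the thromboxane receptor gene, rose by 0.49, and Islr2, a membrane protein of neurons, by 0.32, with a call lost without any 1 of Noggin-deficient replicates 1 and 2 and wild type replicate 2 (adjusted p = 0.06, 0.067 and 0.14). Pbxip1, a protein that binds PBX factors, had 25.61, 26.01 and 25.39 in Noggin-deficient and 31.37 and 31.36 in wild type libraries, a log2 change of -0.29 that was -0.02 (adjusted p = 0.65) under median-of-ratios scaling.

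Developmental transcription factors outside these families were set beside the members. Of 26 tested, out of 70 on the list, 11 were called higher and 15 lower, with a median log2 change of -0.35 that turned to 0.02 once the length trend was removed. Msx1 and Hand1 rose by 1.86 and 1.63, and Msx2 and Hand2 by 1.27 and 1.06, all factors of limb mesenchyme or BMP response, Hand genes also of sympathetic neurons. Msx1 and Hand1 passed the filter only through Noggin-deficient values, so their changes are given as descriptions. Lbx1, the homeobox gene of migrating limb muscle precursors, fell by 0.66, and Myf6, a muscle regulatory factor, by 0.92. Mef2a, Mef2c and Mef2d, partners of the muscle regulatory factors, had log2 changes of -0.42, -0.29 and -0.55, with Mef2c at 0.04 once the length trend was removed. Grhl3, Trp63 and Ovol1, factors of the epidermis, had log2 changes of -1.05, -0.73 and -1.16, all called. The factors named so far are only some of the 26, so their directions are no pattern by tissue, and none was tested. Among the others, Trps1, Zeb2 and Etv5 were called lower, with log2 changes of -0.36, -0.40 and -0.33. Ebf2, Hey1 and Sp7 were called higher, with 0.46, 0.55 and 0.53.

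Against a change of 1.5-fold, limma called 11 members, where 4.22% of all tested genes were called higher and 10.3% lower. The 9 called higher were Zic1, Phox2a, Hoxa11os, Hoxd12, Dlx2, Pax9, Lhx8, Hoxc13 and Hoxa11, and the 2 called lower were Barx2 and Foxi3. Of those 9, all but Zic1 and Hoxa11 passed the filter only through their Noggin-deficient values, so their share is not read against that of all genes. Replicate spread was close to that of all genes, with a median coefficient of variation of 5.44% over the tested members and 4.64% over all tested genes in the Noggin-deficient libraries, and of 4.18% and 3.51% in the wild type ones.

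**Figure D4:**
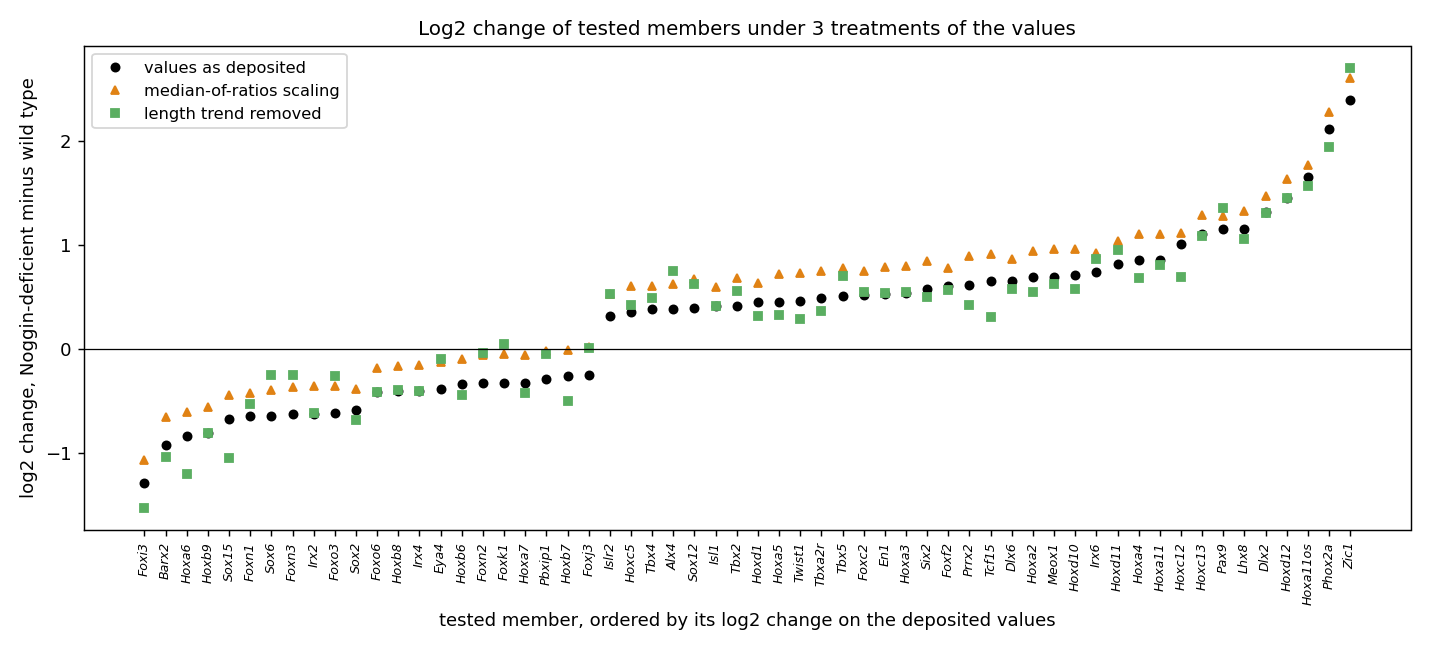
Log2 change (Noggin-deficient minus wild type) of tested members, in order of their change on the deposited values (circles), under median-of-ratios scaling (triangles) and after removal of the trend on transcript length (squares). Median-of-ratios scaling lifts all points and brings Foxj3 to 0.02, and length removal brings Foxk1 to 0.05 and Foxj3 to 0.01; the rest keep their side of 0.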

How the data were processed

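Forelimb muscle RNA of 3 Noggin-deficient and 2 wild type samples was sequenced, and the genotype label gave the groups. RNeasy Micro columns and KAPA stranded mRNA chemistry were used, per the labels' protocols. The deposited values are a normalized expression signal that the authors computed in an unnamed unit. STAR 2.4.2a, build mm9 and DESeq2 (no version) are named, with no role, per the submitters' processing notes. Read depth is unknown, so no counting interval is given. Some members enter the counts but are not reported here by name or in the figures.

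Each table held the same 4743 genes. Values were tested with limma 3.58.1 (R 4.3.3, intensity trend) on log2(value + 0.25) over the 3913 genes with at least 0.5 in at least 2 libraries, with no covariate. The code was tested on simulated data. Transcript lengths were the longest per symbol in GENCODE M21 and covered 94.1% of listed genes and all 76 members. Members, tissue groups and lists were chosen with earlier results of these data known. Library values are printed for members with a log2 change of at least 0.58 either way, a mean of at least 20 or the 3 highest means in a tissue group, and others were added after values were seen, as was the separation of Hox genes from the tissue groups. Alternatives were the pseudocount, the filter, 2 rescalings, length, the variance model, a 1.5-fold threshold, each library left out, and replicate number. The 3-against-2 design leaves the lone wild type library, where 1 is left out, assumed to vary like the others.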

Additional observations from a re-analysis of the deposited data

How the results depend on the processing

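The direction of 58 of the 61 tested members held under every setting tried, the exceptions being Foxj3 (0.02 under median-of-ratios scaling and 0.01 with the length trend removed), Foxk1 (0.05 once the length trend was removed) and 1 other (0.02 under median-of-ratios scaling). The median of the other transcription factors turned to 0.02 after removal of that trend. The 59 member calls became 34 with a minimum of 2 in at least 2 libraries, where fewer members are tested (19 higher), and 11 against a 1.5-fold change (9 higher and 2 lower). Under median-of-ratios scaling 9 members were called lower, against 22. Over all listed genes, 3836 calls became 569 against a 1.5-fold change (165 higher and 404 lower), and the 2352 lower calls became 1272 under median-of-ratios scaling and 1386 once the length trend was removed. The cause was not tested. The members' median log2 change of 0.41 was 0.31 with a pseudocount of 1, 0.46 with 0.1, 0.67 under median-of-ratios and 0.60 under upper-quartile scaling. With 1 library left out it lay between 0.37 and 0.48, with 54 to 59 member calls.

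Replicate numbers are shared by the groups, but nothing says that they mark a common litter or day. Deviations from the group means correlated at -0.126 for replicate 1 and -0.0617 for replicate 2, over genes. With the replicate block 59 members (37 higher and 22 lower) and 3772 of all genes were called. The unknown depth limits the members under the filter, and with no counts their levels near 0 cannot be given a counting error.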
